A study of Mus musculus with 12 samples.

Results

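The enzymes described here are the 10 that make serine from a glycolytic intermediate and pass a carbon of it through folate: Phgdh, Psat1, Psph, Shmt1, Shmt2, Mthfd1, Mthfd1l, Mthfd2, Mthfd2l and Aldh1l2. They were taken by gene name, and all 10 were found among the 39423 genes listed. The set was put forward with results of these same libraries known, so it was selected on its levels in the 4 conditions, and the differences of its members are given below as a description without a p-value. RNA was sequenced from 3T3-L1 cells, a mouse preadipocyte line that turns into fat cells in culture, after transfection with a control siRNA (siNC in the labels, siCtrl here) or with siPRMT1, an siRNA against Prmt1, the main asymmetric arginine methyltransferase of mammalian cells. Every culture also received MDI, the inducing mixture of 3-isobutyl-1-methylxanthine, dexamethasone and insulin, and was collected 24 h or 72 h later, with 3 libraries in each of the 4 conditions and 12 in all. No untreated or uninduced cells are among them, all come from 1 cell line, and the knockdown was partial.

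Phgdh, Psat1 and Psph act one after another in the cytosol to make serine. Serine hydroxymethyltransferases then move a carbon from serine to tetrahydrofolate and release glycine. The Mthfd enzymes and Aldh1l2 take that folate-bound carbon on to formate or carbon dioxide, on parallel routes in the cytosol and the mitochondria. The carbon feeds purine, thymidylate and methionine synthesis, and some of the steps yield NADPH, which fat cells use to make lipid. Several of these genes are known to be activated by ATF4, a transcription factor of the amino acid and stress response.

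The stretches below lie before a RefSeq start of 5 of the 10 genes. Each is shown because it holds a CCAAT sequence, a common promoter element, within the 250 bases before that start. They are read 5′ to 3′ on the strand of the gene in build GRCm38.p6, with 12 bases to each side of the match. The match shown is the nearest to the start whose stretch lies wholly before the start and outside any annotated untranslated region. A nearer Psat1 match, at position -6, is therefore not shown. Capitals mark CCAAT or its reverse complement ATTGG.
Phgdh: ttctgtttatttCCAATataaatcagcct
Psat1: tagtgagcgtggCCAATagggaggggagc
Shmt1: atgctcccactgATTGGgccgctgtaggg
Mthfd1: acactatctctgATTGGctaaaagcgagg
Mthfd2: ccggctcaggggCCAATgggcgcgcggga

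These lie at chr3:98340146-98340174 (minus strand), chr19:15925079-15925107 (minus), chr11:60811296-60811324 (minus), chr12:76255151-76255179 (plus) and chr6:83317610-83317638 (minus). Counted from the start, the first base of the match is at position -193 for Phgdh, -36 for Psat1, -47 for Shmt1, -69 for Mthfd1 and -22 for Mthfd2. The Mthfd1 stretch also lies in an exon of Gm47525 on the opposite strand, and the other 4 lie in no annotated exon. RefSeq promoter windows, which run from 250 bases before to 50 bases after a start, were matched for 9 of the 10 genes, and 6 of the 9 held CCAAT on either strand, as did 37.4% of the 32851 windows of all genes. The Mthfd2 window, whose start lies inside the annotated span of the gene, held 3 such matches, and both matches of Psph lie in an annotated untranslated region and are not shown. The ATF4 and C/EBP composite sequence TGATGNAA was in none of the 9 genes' windows and in 3.97% of all windows, and CACGTG, the E-box, was likewise in none of the 9 and in 7.15%. CGTCA, the short form of the cAMP response element, was found for Psph, Shmt1 and Mthfd1l, and in 20.8% of all windows. The motifs and the genes were chosen with other results in view, and a match describes letters in a window.

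Total counts ran from 15116462 to 42357137 per library, and a single member held between 307 and 15228 counts in a library, so counting error reached 5.71% of a value at most. Prmt1 was lower in every siPRMT1 library. At 24 h it stood at 82.9, 83.4 and 91.3 FPKM (counts scaled to gene length and to the library's total count) with siCtrl and at 43.8, 38.6 and 41.4 FPKM with siPRMT1, a log2 fold change of -1.11 (SE 0.076). At 72 h it stood at 110.6, 120.4 and 140.2 FPKM against 62.0, 71.7 and 68.5 FPKM, a log2 fold change of -0.88 (SE 0.088). Summed over 8 markers, adipocyte transcripts were between 157 and 164 FPKM with siCtrl and between 118 and 133 FPKM with siPRMT1 at 24 h, and between 2803 and 3016 FPKM against 2179 and 2354 FPKM at 72 h. Summed over 8 preadipocyte and fibroblast markers, levels were 1621 to 1705 against 1498 to 1529 FPKM at 24 h and 692 to 705 against 848 to 931 FPKM at 72 h. Both sums therefore moved with siRNA and with time, and their part in the values below was not tested. Summed over 5 macrophage and leukocyte markers, levels were 1.76 to 1.89 FPKM with siCtrl and 2.45 to 2.86 FPKM with siPRMT1 at 24 h, and 2.33 to 2.55 against 2.29 to 2.53 FPKM at 72 h. Most of this was Cd68, at 1.40 ± 0.0723 and 2.08 ± 0.249 FPKM at 24 h and 2.14 ± 0.140 and 1.90 ± 0.123 FPKM at 72 h (SD, n = 3), which was called lower in the interaction, while Ptprc was at 0 counts in every library. The 4 endothelial markers summed to under 1 FPKM, and the 4 epithelial markers, at or under 0.12 FPKM at 24 h, reached 11.0 to 11.4 FPKM with siCtrl and 6.36 to 6.64 FPKM with siPRMT1 at 72 h through Krt8 and Krt18. In bulk RNA, fewer cells of a type and less RNA per cell cannot be told apart. The labels do not say that the 3 libraries of a condition were separate cultures, so p-values and errors measure the spread between these libraries, which may be technical.

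At 24 h of induction, siPRMT1 libraries held more of the serine and one-carbon transcripts than siCtrl libraries, with all 10 log2 fold changes positive, and at 72 h 9 of the 10 were negative. Summed over the 10 genes, the level was 461 ± 33.3 FPKM with siCtrl and 648 ± 20.4 FPKM with siPRMT1 at 24 h, and 691 ± 24.4 FPKM against 632 ± 4.15 FPKM at 72 h (SD, n = 3). In siCtrl cells the sum was therefore higher at 72 h than at 24 h, while in siPRMT1 cells it was already near its 72 h level at 24 h. A gene was called where edgeR's quasi-likelihood test gave a Benjamini-Hochberg adjusted p under 0.05 and the absolute log2 fold change was over 0.5. At 24 h, 3 of the 10 were called higher (Aldh1l2, Psph and Shmt2), beside 1.95% of all genes tested, and 0 lower, beside 1.61%. Those shares stand for 267 genes higher and 220 lower, or 323 and 148 with library totals in place of TMM scaling, and the genes called higher ran from 61 without siPRMT1 replicate 3 to 504 without siCtrl replicate 3. At 72 h, 0 were called higher, beside 2.84% of all genes, and 0 lower, beside 3.8%. The median log2 fold change was 0.37 for the members and 0.0096 for all genes at 24 h, and -0.13 and 0.0073 at 72 h. By adjusted p alone, with no fold threshold, 7 were higher at 24 h, beside 3.22% of all genes, and 3 (Mthfd1l, Shmt2 and Psph) lower at 72 h, beside 8.94%. The share at 24 h depends on single libraries. In either direction 1040 genes passed, but 131 without siPRMT1 replicate 3 and 4133 without siCtrl replicate 3. By the same rule 8 were higher at 72 h than at 24 h with siCtrl, beside 30.2%, and with siPRMT1 4 were higher, beside 32.2%, and 5 lower, beside 31.2%. Several of the 7 at 24 h no longer passed when 1 library was left out. Among them, Phgdh and Psat1 did not pass without siCtrl replicate 1 or 2 or any 1 siPRMT1 library. Shmt2 did not pass without siPRMT1 replicate 1 or without siPRMT1 replicate 3.

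**Figure D1:**
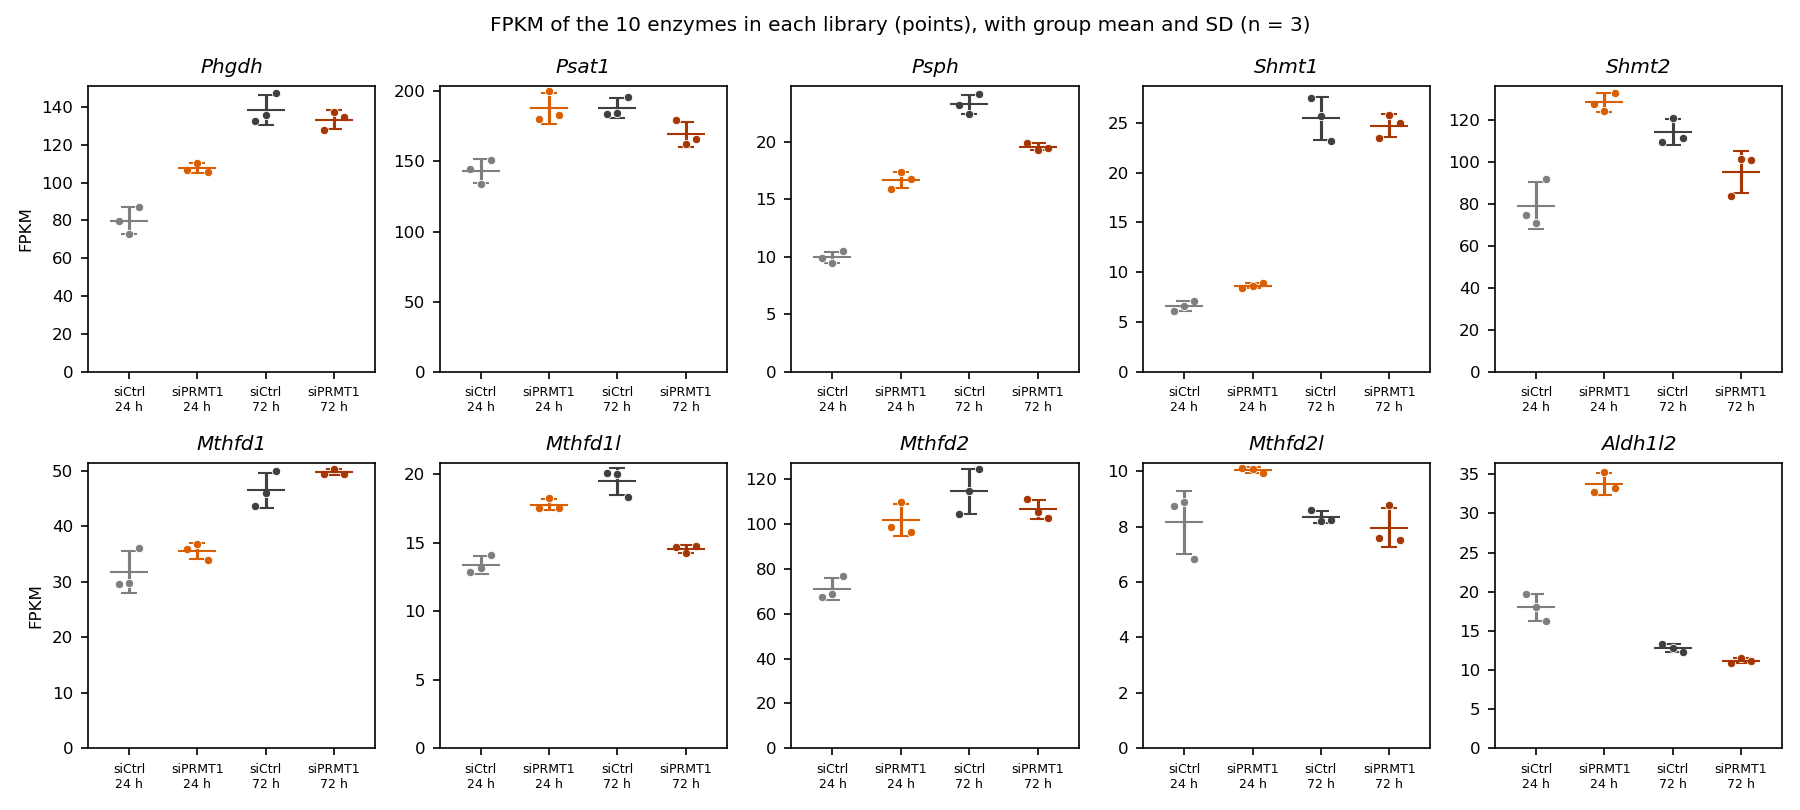
Level of each of the 10 enzymes in FPKM (vertical axes, each from 0) in the 3 libraries of each condition (points), with the mean and SD as bars. At 24 h the siPRMT1 points lie above the siCtrl points for 9 of the 10 genes, with Mthfd1 the exception, and at 72 h they lie below for 5.

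Serine synthesis begins with Phgdh (chr3:98313171-98339969, minus strand), the dehydrogenase that takes 3-phosphoglycerate out of glycolysis. At 24 h it stood at 79.8, 72.6 and 87.2 FPKM with siCtrl and at 106.4, 110.5 and 105.8 FPKM with siPRMT1. At 72 h the values were 132.5, 135.7 and 147.3 FPKM with siCtrl and 127.7, 137.5 and 134.6 FPKM with siPRMT1. The groups were apart at 24 h, by a log2 fold change of 0.38 (SE 0.0764), and overlapped at 72 h, where it was -0.062 (SE 0.0685). Phgdh has an annotated pseudogene, Phgdh-ps1, and how reads shared with it were counted is not given in the sources used here.

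Psat1 (chr19:15905123-15925059, minus strand), the aminotransferase of the pathway, had the highest level of the 10 enzymes in all 4 conditions. It stood at 144.3, 133.6 and 150.7 FPKM with siCtrl and 180.1, 200.4 and 182.8 FPKM with siPRMT1 at 24 h. By 72 h its values were 183.7, 184.5 and 196.1 FPKM with siCtrl and 179.5, 162.4 and 165.9 FPKM with siPRMT1. The siPRMT1 libraries were thus all above the siCtrl libraries at 24 h (log2 fold change 0.34, SE 0.0691) and all below them at 72 h (-0.16, SE 0.0704). The mean with siPRMT1 at 24 h was 99.8% of the siCtrl mean at 72 h.

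Psph (chr5:129765558-129787253, minus strand), the phosphatase that releases free serine, was the lowest of the 3 serine synthesis genes and the one with the largest knockdown difference among them. At 24 h it stood at 9.90, 9.45 and 10.5 FPKM with siCtrl and at 15.9, 17.4 and 16.7 FPKM with siPRMT1, a log2 fold change of 0.70 (SE 0.0756), which was called. By 72 h its levels reached 23.2, 22.4 and 24.1 FPKM with siCtrl and 19.9, 19.3 and 19.5 FPKM with siPRMT1, a log2 fold change of -0.25 (SE 0.0695), which was not called. The groups did not overlap at either time. The ratio of Phgdh to Psph in FPKM was 8.03 ± 0.325 with siCtrl and 6.46 ± 0.201 with siPRMT1 at 24 h, and 5.96 ± 0.214 and 6.82 ± 0.366 at 72 h (SD, n = 3). The mean ratio of these 2 transcripts was thus lower with siPRMT1 at 24 h and higher at 72 h.

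Of the serine hydroxymethyltransferases, the cytosolic Shmt1 and the mitochondrial Shmt2 behaved differently over time. Shmt1 (chr11:60788886-60811265, minus strand) stood at 6.09, 6.64 and 7.13 FPKM with siCtrl and 8.40, 8.64 and 8.94 FPKM with siPRMT1 at 24 h, the lowest of the 10 in both groups by mean. Its 72 h values were 27.5, 25.7 and 23.2 FPKM with siCtrl and 23.5, 25.8 and 24.9 FPKM with siPRMT1, the sixth highest in both. The siRNA groups were apart at 24 h (log2 fold change 0.34, SE 0.0907) and overlapped at 72 h (-0.047, SE 0.0794).

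Shmt2 (chr10:127517123-127522444, minus strand) stood at 74.5, 70.9 and 91.7 FPKM with siCtrl at 24 h. In that group Shmt2 had, with Mthfd2l, the widest relative spread of the 10 genes (coefficient of variation 14.0% for both). With siPRMT1 it stood at 127.6, 124.1 and 132.7 FPKM, a log2 fold change of 0.65 (SE 0.0936), which was called, though not without siPRMT1 replicate 1 (0.63) or without siPRMT1 replicate 3 (0.62) at 24 h. Its levels at 72 h were 109.5, 121.0 and 111.2 FPKM with siCtrl and 83.7, 101.0 and 101.0 FPKM with siPRMT1, apart by a log2 fold change of -0.26 (SE 0.0806). Shmt2 shares 32 exon bases with Ndufa4l2 on the opposite strand, 1.39% of its exon length, and strand handling in the counting is not given in the sources used here.

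The within-library ratio of Shmt2 to Shmt1 showed the contrast between this pair of genes. It was 12.2, 10.7 and 12.9 with siCtrl and 15.2, 14.4 and 14.8 with siPRMT1 at 24 h. At 72 h it was 3.98, 4.71 and 4.79 with siCtrl and 3.57, 3.92 and 4.05 with siPRMT1. Between the times the ratio did not overlap in either siRNA arm, and the siRNA groups were apart at 24 h and overlapped at 72 h.

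**Figure D2:**
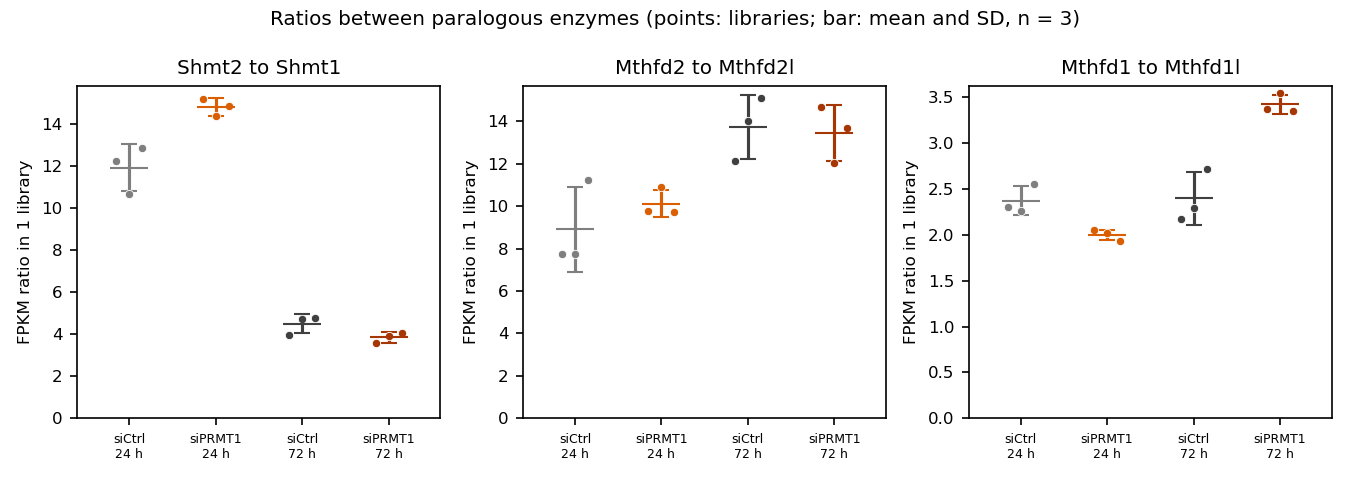
Ratios of FPKM between paralogous enzymes within each library (points; bar, mean and SD, n = 3; vertical axes from 0) in the 4 conditions. Shmt2 to Shmt1 drops from between 10.7 and 15.2 at 24 h to between 3.57 and 4.79 at 72 h, and Mthfd1 to Mthfd1l is highest, 3.35 to 3.54, with siPRMT1 at 72 h.

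Mthfd1 (chr12:76255232-76319820, plus strand), the trifunctional cytosolic enzyme, was the member with the smallest difference at 24 h. It stood at 29.6, 29.8 and 36.1 FPKM with siCtrl and 36.0, 36.8 and 34.0 FPKM with siPRMT1 at 24 h. Its 72 h levels were 43.6, 46.0 and 49.9 FPKM with siCtrl and 49.4, 50.4 and 49.4 FPKM with siPRMT1. The groups overlapped at both times, with log2 fold changes of 0.11 (SE 0.0896) and 0.09 (SE 0.0708). It shares 279 exon bases with Gm40443 on the opposite strand, 8.39% of its exon length, so part of its counts is uncertain.

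Mthfd1l (chr10:3972782-4167081, plus strand), the mitochondrial counterpart that releases formate, had the largest difference of the 10 at 72 h. At 24 h it stood at 12.8, 13.2 and 14.1 FPKM with siCtrl and 17.6, 18.2 and 17.6 FPKM with siPRMT1, a log2 fold change of 0.36 (SE 0.0680). The 72 h values were 20.07, 20.04 and 18.36 FPKM with siCtrl and 14.7, 14.2 and 14.8 FPKM with siPRMT1, a log2 fold change of -0.43 (SE 0.0704), under the threshold of 0.5. The groups did not overlap at either time. Mthfd1l shares 76 exon bases with Gm40591 on the opposite strand, 1.59% of its exon length.

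The ratio of Mthfd1 to Mthfd1l was 2.37 ± 0.160 with siCtrl and 2.0 ± 0.0581 with siPRMT1 at 24 h, and 2.40 ± 0.285 and 3.42 ± 0.105 at 72 h (SD, n = 3). At 72 h every siPRMT1 library (3.37, 3.54 and 3.35) was above every siCtrl library (2.17, 2.30 and 2.72), and at 24 h every one was below.

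Mthfd2 (chr6:83305704-83326035, minus strand), the mitochondrial dehydrogenase and cyclohydrolase best known from proliferating cells, stood at 67.5, 68.9 and 76.7 FPKM with siCtrl and 98.8, 109.7 and 96.6 FPKM with siPRMT1 at 24 h. Values at 72 h were 104.4, 114.8 and 124.4 FPKM with siCtrl and 111.3, 105.6 and 102.8 FPKM with siPRMT1. The groups were apart at 24 h, with a log2 fold change of 0.47 (SE 0.0775) just under the threshold, and overlapped at 72 h (-0.11, SE 0.0775). It was called higher without siCtrl replicate 3 at 24 h (0.52), with library totals in place of TMM scaling (0.52) and in the 3 limma fits on FPKM (0.51 to 0.52), so that 4 of the 10 enzymes were called in each of these.

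Mthfd2l (chr5:90931196-91021368, plus strand), the related mitochondrial enzyme, was low in all conditions. It stood at 8.73, 8.88 and 6.83 FPKM with siCtrl and 10.1, 10.1 and 9.93 FPKM with siPRMT1 at 24 h, apart by a log2 fold change of 0.25 (SE 0.115). At 72 h it stood at 8.61, 8.19 and 8.24 FPKM against 7.59, 8.76 and 7.51 FPKM, overlapping, with a log2 fold change of -0.075 (SE 0.0901). The ratio of Mthfd2 to Mthfd2l was 8.91 ± 2.01 with siCtrl and 10.1 ± 0.658 with siPRMT1 at 24 h, and 13.7 ± 1.503 and 13.5 ± 1.32 at 72 h (SD, n = 3), so it overlapped between siRNAs at both times.

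Aldh1l2 (chr10:83487447-83534151, minus strand), the mitochondrial enzyme that oxidises formyl-tetrahydrofolate to carbon dioxide with formation of NADPH, had the largest knockdown difference of the 10 at 24 h. It stood at 19.7, 18.1 and 16.3 FPKM with siCtrl and 32.7, 35.3 and 33.2 FPKM with siPRMT1, a log2 fold change of 0.86 (SE 0.0865), which was called. At 72 h it stood at 13.3, 12.8 and 12.2 FPKM with siCtrl and 10.9, 11.5 and 11.2 FPKM with siPRMT1, apart by a log2 fold change of -0.20 (SE 0.0682), which was not called. By mean FPKM, Aldh1l2 was the only one of the 10 enzymes lower at 72 h than at 24 h in siCtrl cells.

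**Figure D3:**
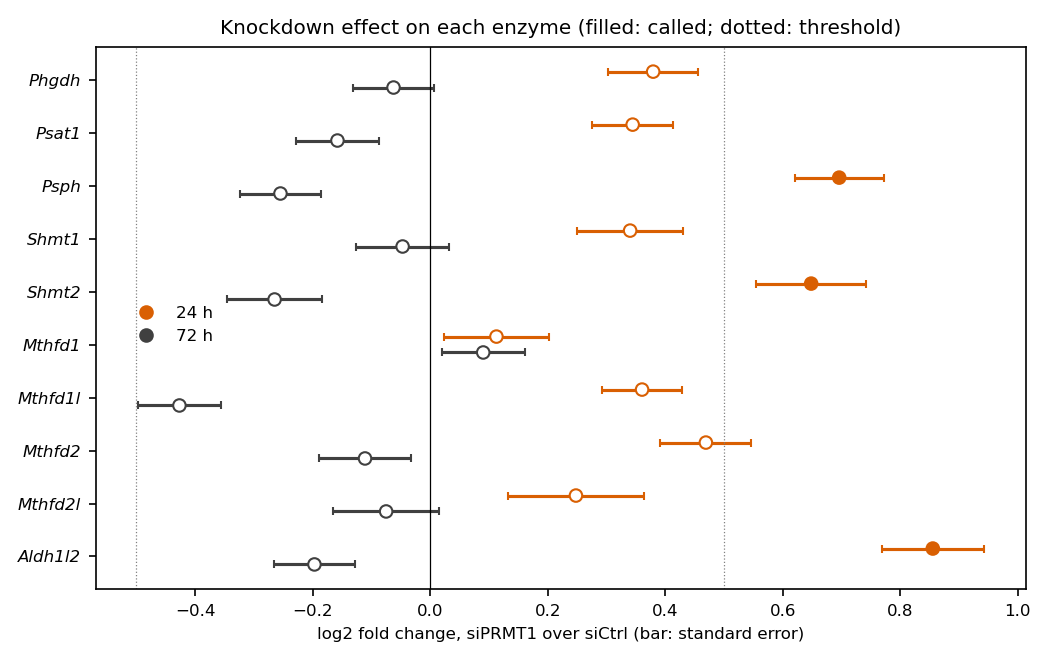
Log2 fold change of each enzyme, siPRMT1 over siCtrl (horizontal axis; bars, standard error), at 24 h (orange) and 72 h (dark), filled where the gene was called. All 10 values at 24 h lie above 0, from 0.11 for Mthfd1 to 0.86 for Aldh1l2, and 9 of 10 at 72 h lie below it.

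Counted by libraries, FPKM of the siRNA groups did not overlap for 9 of the 10 at 24 h, all with siPRMT1 above, beside 31.7% of all genes tested in either direction, and for 5 of the 10 at 72 h (Psat1, Psph, Shmt2, Mthfd1l and Aldh1l2), all with siPRMT1 below, beside 34.2%. In siCtrl libraries at 24 h, replicate 3 was the highest for 8 of the 10 genes. By compartment, the median log2 fold change was 0.34 for the 5 cytosolic and 0.47 for the 5 mitochondrial enzymes at 24 h, and -0.062 and -0.20 at 72 h. The 5 mitochondrial enzymes summed to 190 ± 13.9 FPKM with siCtrl and 291 ± 5.395 FPKM with siPRMT1 at 24 h, and to 269 ± 11.5 against 236 ± 6.61 FPKM at 72 h (SD, n = 3). The 3 serine synthesis genes summed to 233 ± 16.4 and 312 ± 14.1 FPKM at 24 h, and to 350 ± 15.4 and 322 ± 4.395 FPKM at 72 h.

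The change of the knockdown effect between the times was fitted as an interaction over all 12 libraries, as the 72 h minus the 24 h log2 fold change. It was called lower for 5 of the 10, beside 3.47% of all genes tested, and higher for 0, beside 4.77%, with 697 genes higher and 507 lower in all, or 512 and 702 with library totals. The values were -1.03 (SE 0.102) for Aldh1l2, -0.93 (SE 0.0995) for Psph, -0.89 (SE 0.138) for Shmt2, -0.77 (SE 0.0966) for Mthfd1l and -0.56 (SE 0.117) for Mthfd2. Psat1 (-0.48), Phgdh (-0.42), Shmt1 (-0.37) and Mthfd2l (-0.30) were negative and not called, and Mthfd1 was at -0.00044 (SE 0.120). The call of Mthfd2 was lost without siPRMT1 replicate 2 at 24 h (-0.50) and without siCtrl replicate 3 at 72 h (-0.49). Psat1 was called lower in 5 of the 12 fits that left out 1 library, and Phgdh in 1.

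Between 24 h and 72 h in siCtrl cells, 4 of the 10 were called higher at 72 h, beside 22.7% of all genes tested, and 1 was called lower, beside 20.4%. The log2 fold changes of the 4 were 1.88 (SE 0.110) for Shmt1, 1.15 (SE 0.0896) for Psph, 0.72 (SE 0.0924) for Phgdh and 0.62 (SE 0.0936) for Mthfd2, and that of Aldh1l2 was -0.56 (SE 0.0918). Mthfd1 (0.48), Mthfd1l (0.47), Shmt2 (0.46) and Psat1 (0.33) stood under the threshold, and Mthfd2l was at -0.037 (SE 0.120). Without siCtrl replicate 3 at 24 h, 7 were called higher. With library totals in place of TMM scaling, Shmt2, Mthfd1 and Mthfd1l passed the threshold (0.53, 0.55 and 0.54), Aldh1l2 did not (-0.49), and Mthfd2l turned to 0.033.

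In siPRMT1 cells, 1 of the 10 was called higher at 72 h than at 24 h, beside 19% of all genes tested, and 1 lower, beside 17.4%. These were Shmt1, with a log2 fold change of 1.501 (SE 0.0693), and Aldh1l2, with -1.60 (SE 0.0586). Mthfd1 (0.47), Phgdh (0.30), Psph (0.22) and Mthfd2 (0.054) were positive, and Psat1 (-0.16), Mthfd1l (-0.30), Mthfd2l (-0.35) and Shmt2 (-0.44) negative. Shmt1 and Aldh1l2 were thus called in both siRNA arms, Shmt1 higher and Aldh1l2 lower at 72 h, though Aldh1l2 in siCtrl cells not with library totals or the limma fits on FPKM. The time and knockdown comparisons share libraries, so their values are set side by side only.

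By mean FPKM the order with siCtrl at 24 h was Psat1, Phgdh, Shmt2, Mthfd2, Mthfd1, Aldh1l2, Mthfd1l, Psph, Mthfd2l and Shmt1. Neighbours whose libraries overlapped were Phgdh and Shmt2, Shmt2 and Mthfd2, and Mthfd2l and Shmt1. With siPRMT1 at 24 h Shmt2 stood above Phgdh, and the libraries of Phgdh and Mthfd2 and of Mthfd1 and Aldh1l2 overlapped. At 72 h the order was Psat1, Phgdh, Mthfd2, Shmt2, Mthfd1, Shmt1, Psph, Mthfd1l, Aldh1l2 and Mthfd2l with both siRNAs. Mthfd2 and Shmt2 overlapped there with siCtrl, as did Shmt1 and Psph, and no neighbours did with siPRMT1. Between libraries of a condition, the median coefficient of variation over the 10 genes was 8.50% with siCtrl and 3.72% with siPRMT1 at 24 h, and of 5.23% and 3.92% at 72 h.

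In 4 other lists of folate and serine metabolism, the median log2 fold change at 24 h lay between -0.18 and 0.036. Over all genes tested, 1.95% were called higher and 1.61% lower. The lists were chosen with earlier results of these data known, so p-values of their named genes are descriptive. Of 8 genes for glycine cleavage and serine breakdown, 7 were tested and 1 was called higher and 0 lower, with a median log2 fold change of -0.025. The called gene was Sds, serine dehydratase, at 0.47, 0.70 and 0.86 FPKM with siCtrl and 1.17, 1.39 and 1.68 FPKM with siPRMT1 (log2 fold change 1.08, SE 0.259, edgeR quasi-likelihood test, Benjamini-Hochberg adjusted p = 0.0419). Its level is low and its call held in 1 of the 6 fits that left out 1 library. Of 11 genes of the folate cycle and its end uses, 9 were tested and 0 called in either direction, with a median of 0.036, and of 10 genes for folate uptake, retention and mitochondrial import, 8 were tested and 0 called, with a median of -0.043. Of 11 genes of the methionine cycle, 7 were tested and 0 called, with a median of -0.18.

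At 72 h, 0 of 7 tested genes for glycine cleavage and serine breakdown were called, and 0 of 7 of the methionine cycle. Over all genes tested, 2.84% were called higher and 3.8% lower. Aldh1l1, the cytosolic relative of Aldh1l2, was the 1 gene called lower of 10 tested in the folate cycle list. It stood at 0.75, 0.80 and 0.67 FPKM with siCtrl and 0.59, 0.34 and 0.41 FPKM with siPRMT1 (log2 fold change -0.73, SE 0.218, edgeR quasi-likelihood test, adjusted p = 0.0328), and its call held in 1 of 6 fits that left out 1 library. Slc46a1, the proton-coupled folate transporter, was the 1 called lower of 9 tested in the uptake list, at 6.61, 7.91 and 6.96 FPKM against 4.30, 5.76 and 4.91 FPKM (log2 fold change -0.52, SE 0.120, edgeR quasi-likelihood test, adjusted p = 0.00842), and its call held in 4 of the 6 such fits.

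Among 10 genes consisting of ATF4 and genes it is known to activate, 5 were called higher at 24 h, beside 1.95% of all genes. Of the same list 0 were called lower, beside 1.61%, with all 10 log2 fold changes positive and a median of 0.49. Trib3, a pseudokinase induced by stress, went from 14.5, 14.8 and 17.6 FPKM to 44.5, 48.9 and 50.5 FPKM (log2 fold change 1.57, SE 0.0932, edgeR quasi-likelihood test, adjusted p = 0.000976). Chac1, which degrades glutathione, went from 7.79, 6.87 and 8.93 FPKM to 17.99, 19.89 and 19.93 FPKM (1.24, SE 0.108, edgeR adjusted p = 0.00225). Ddit3, the transcription factor CHOP, also rose (0.69, SE 0.0691, edgeR adjusted p = 0.00302), and in all 3 genes the siPRMT1 libraries lay above the siCtrl libraries. The list was chosen with earlier results of these data known, and the 3 genes by their p, so these p-values are descriptive.

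At 72 h, 0 of the same 10 were called higher, beside 2.84% of all genes tested, and 3 lower, beside 3.8%. Their median log2 fold change was -0.31. Trib3 was at 42.0, 42.7 and 40.9 FPKM with siCtrl and 20.8, 20.8 and 23.4 FPKM with siPRMT1 (-0.96, SE 0.0753, edgeR adjusted p = 1.47e-06). Ddit4, an inhibitor of mTORC1, was at -0.66 (SE 0.0801, edgeR adjusted p = 5.40e-05) and Chac1 at -0.65 (SE 0.0827, edgeR adjusted p = 7.58e-05). The p-values of these 3 genes are descriptive for the same reason. Atf4 itself was not called, with log2 fold changes of 0.20 (SE 0.067) at 24 h and -0.13 (SE 0.068) at 72 h. These genes and the 10 enzymes therefore had medians of the same sign at each time, a comparison that shares all its libraries and was not tested.

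**Figure D4:**
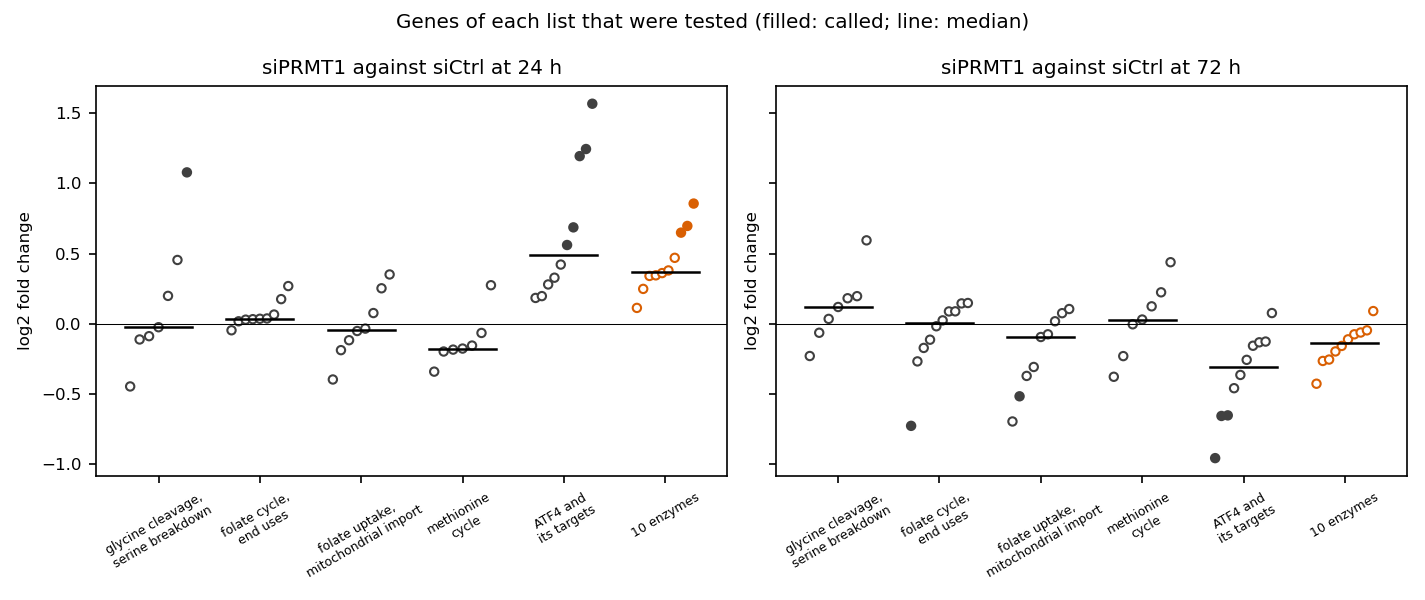
Log2 fold change (vertical axis), siPRMT1 over siCtrl, of every tested gene (points, filled where called) in 5 lists and in the 10 enzymes (orange) at 24 h and at 72 h, with list medians as lines. The medians of the ATF4 list and of the 10 enzymes are 0.49 and 0.37 at 24 h and -0.31 and -0.13 at 72 h, and those of the other lists stay between -0.18 and 0.12.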

How the data were processed

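RNA of 12 libraries (3 per condition) was sequenced. The authors deposited whole-number counts per gene, without normalization, and FPKM, which recomputation from the counts, listed gene lengths and total counts matched to within 0.005. The submitters' processing notes name cutadapt 1.11, HISAT2 2.1.0, RSEM 1.2.6 and build mm10; the counting tool, strand setting and treatment of multiply mapped reads are not given in the sources used here. Columns were assigned to conditions by label.

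Counts were tested in R 4.3.3 with edgeR 4.0.16 (quasi-likelihood, TMM, filterByExpr) and Benjamini-Hochberg adjustment over all genes tested, 3 against 3 libraries, with the interaction fitted over 12. A call required both an adjusted p below 0.05 and a log2 fold change beyond 0.5 in size. Each SE is the size of the log2 fold change divided by the root of the F statistic. Alternatives were DESeq2 1.42.0, limma 3.58.1 on log2(FPKM + 1) or log2(FPKM + 0.1) over genes of at least 1 FPKM, other scalings and filters, a replicate block and leaving out each library. Scripts were tested on simulated data. Members and gene lists were chosen with earlier results of these data known. Named genes are the 10 enzymes, Prmt1 and, per list and knockdown comparison, up to 3 called genes with the smallest p, with the 5 genes nearest in pattern to Phgdh and to Mthfd2; Atf4 was named after its values were seen. Coordinates are GRCm38, and promoter windows come from RefSeq (GRCm38.p6).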

Additional observations from a re-analysis of the deposited data

Results flagged for a closer look

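The knockdown effect differed between 24 h and 72 h, by the interaction over all 12 libraries, for 5 of the 10 enzymes and for 4 named genes of the ATF4 list. Over all genes tested, the interaction was called lower for 3.47% and higher for 4.77%. As the 72 h minus the 24 h log2 fold change, it was -1.03 for Aldh1l2, -0.93 for Psph, -0.89 for Shmt2, -0.77 for Mthfd1l and -0.56 for Mthfd2. Of the 10 genes of the ATF4 list, 7 were called lower. For the named genes the interaction was -2.50 for Trib3, -1.88 for Chac1, -0.92 for Ddit3 and -0.92 for Ddit4. The values of the enzymes are part of the levels they were chosen on.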

How the results depend on the processing

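The log2 fold changes of all 10 enzymes kept their sign at 24 h and at 72 h under every alternative run, and Psph and Aldh1l2 stayed called at 24 h throughout. By adjusted p alone, with no fold threshold, 7 enzymes were called higher at 24 h, 3 lower at 72 h, 8 higher in siCtrl over time, and 4 higher and 5 lower in siPRMT1 over time (over all genes 3.22%, 8.94%, 30.2%, 32.2% and 31.2%). Several of those 7 no longer passed when 1 library was left out. Among them, Phgdh and Psat1 did not pass without siCtrl replicate 1 or 2 or any 1 siPRMT1 library, nor in the limma fit without the filter. Shmt2 did not pass without siPRMT1 replicate 1 or without siPRMT1 replicate 3. In siCtrl over time, 7 were called higher and 0 lower with library totals alone and with each of the 3 limma fits on FPKM, and 4 to 7 were called higher when 1 library was left out. The value of Mthfd2l in that comparison turned to 0.033 with library totals, 0.039 with limma on log2(FPKM + 1) with or without the filter and 0.044 with log2(FPKM + 0.1), and ran from -0.15 to 0.0065 without 1 library. The interaction value of Mthfd1 turned to 0.045 without the filter on low counts and ran from -0.13 to 0.055 without 1 library. Other causes than the construction of each setting were not tested. Leaving out 1 library gave 2 to 4 calls at 24 h, where library totals and the limma fits gave 4, 0 at 72 h and 4 to 7 in the interaction.

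Correlations of same-numbered deviations ran from -0.17 to 0.22, so whether replicate numbers pair the libraries was not settled. With the replicate block 3 enzymes were called at 24 h, 0 at 72 h and 5 in the interaction, as without it. Genes passing adjusted p alone went from 1040 to 1179 at 24 h and from 2313 to 3216 at 72 h with the block. In siPRMT1 over time they went from 9014 to 8910. Over all genes, library totals changed the split of higher and lower calls from 267 and 220 to 323 and 148 at 24 h, and from 697 and 507 to 512 and 702 in the interaction. The 3 limma fits on FPKM called 103 to 223 genes higher and 50 to 113 lower at 24 h, 114 to 228 and 228 to 341 at 72 h (399 and 534 from counts), 264 to 421 and 442 to 583 in the interaction, 2312 to 2604 and 1652 to 1882 in siCtrl over time (3141 and 2828 from counts), and down to 1657 and 1487 in siPRMT1 over time (2705 and 2481). Without 1 library, 61 to 504 genes were called higher and 62 to 369 lower at 24 h, and 504 to 902 and 305 to 1005 in the interaction. In the same fits at 24 h, 131 to 4133 genes passed by adjusted p alone. The order of the enzymes with siCtrl replicate 3 at 24 h alone, chosen after seeing the data, held 6 of the 10 ranks of the group mean. With 3 libraries per group, small differences were not resolved, and low genes such as Sds and Aldh1l1 rest on few counts.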

Other observations

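Of the 12467 genes averaging 1 CPM or more, those whose log2 CPM, centred over the 12 libraries, lay nearest to Phgdh by root mean square difference were Wdr4 (0.043), Uck2 (0.079), Polr3e (0.080), Kat2a (0.082) and Mybbp1a (0.083). Wdr4 had mean levels of 8.54 and 11.7 FPKM with siCtrl and siPRMT1 at 24 h and 15.1 and 14.8 FPKM at 72 h. Nearest to Mthfd2 were Yars (0.095), Gars (0.10), Polr3e (0.108), Cth (0.108) and Hic2 (0.111). Among the enzymes themselves, Mthfd2 stood at rank 58 for Phgdh (0.115) and Mthfd1 at rank 74 (0.119). The other serine synthesis genes were further off, Psph at rank 504 (0.164) and Psat1 at rank 1787 (0.226). Aldh1l2 stood at rank 11271 (0.822) and Shmt1 at rank 9830 (0.595). These are descriptions over 12 libraries that share their 4 conditions.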
